A study of Homo sapiens with 22 samples.

Results

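Mucins, trefoil peptides and their regulators were followed through alectinib treatment in xenograft tumours of H3122, a human lung adenocarcinoma cell line that carries an ALK rearrangement. The 10 human genes were chosen by symbol: the gel-forming mucins MUC5B and MUC5AC, the surface mucins MUC1, MUC4 and MUC16, the trefoil peptides TFF1, TFF2 and TFF3, the transcription factor SPDEF and the endoplasmic reticulum protein AGR2. All 10 are among the 58735 genes of the human table, and 9 passed the filter on low values (FPKM of at least 1 in at least 3 libraries), as did 16029 genes in all. TFF2 did not pass.

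Bulk RNA sequencing of total RNA covered 22 tumour samples. Tumours were grown in NSG mice, an immunodeficient strain without mature T, B and NK cells, or in hHGF-NSG mice, a host whose name refers to human HGF, the ligand of the MET receptor. In each host they were therapy naive, treated with alectinib, an inhibitor of the ALK kinase, for 2 weeks, or treated with it for 6 weeks. NSG tumours numbered 4 naive, 4 at 2 weeks and 4 at 6 weeks, and hHGF-NSG tumours 3, 4 and 3. All groups share the same tumour line, so the results describe 1 line in 2 kinds of host. The sources used here do not give the age of the mice, the dose of alectinib or how the hHGF-NSG host makes human HGF. No label ties a sample to an animal of its own, so a p-value here measures only the spread among samples, which may be technical.

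Gel-forming mucins are very large, heavily O-glycosylated proteins that are stored in granules of goblet and gland cells and swell into mucus after release. Surface mucins stay anchored in the cell membrane, and their tails can take part in signalling. Trefoil peptides are small disulfide-bonded proteins secreted together with mucins, SPDEF drives goblet cell differentiation in the airway, and AGR2 helps fold mucins in the endoplasmic reticulum. Mucus production is a known trait of many lung adenocarcinomas with an ALK rearrangement.

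The recovered human reads ranged from 10688632 to 19065656 per library. All 10 markers of the line passed the filter: EPCAM, an epithelial adhesion molecule, lay between 223 and 349 FPKM, NKX2-1, the lung lineage factor, between 64.6 and 382 FPKM, and ALK between 2.02 and 4.02 FPKM. These markers also moved with treatment: 7 and 7 of the 10 fell in NSG at 2 and 6 weeks and 9 and 7 in hHGF-NSG, while 1 (NKX2-1) rose in each comparison. By the same test, given below, 28.0%, 28.8%, 26.6% and 25.5% of all tested genes fell and 28.1%, 28.8%, 27.5% and 25.9% rose. The summed level of the 10 markers lay between 2610 and 4050 FPKM in naive NSG libraries and between 1350 and 1720 FPKM in treated ones, and between 2680 and 3980 and between 1260 and 1760 FPKM in hHGF-NSG. The keratin KRT19 had the largest fall among them in each comparison, from a mean of 780 FPKM in naive NSG tumours to 191 at 2 weeks and 141 at 6 weeks. The part of this shift in the members' changes was not tested. Of 5 human leukocyte markers 0 passed the filter, and their summed level stayed at or below 0.918 FPKM, most of it CD14 (0.208 to 0.887 FPKM). The library labelled NSG naive replicate 1 stands apart, because it held 43 reads of human HGF, where the other naive NSG libraries held 0, 0 and 1 and the naive hHGF-NSG libraries 13, 28 and 44. Results are given with it. Without it the counts of members called against naive were the same, and the NSG changes at 2 and 6 weeks given below became -4.59 and -6.05 for MUC5B, -2.08 and -2.94 for TFF3, -2.54 and -3.07 for TFF1, -1.75 and -2.06 for SPDEF and 1.58 and 1.57 for MUC4.

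SPDEF, MUC1 and MUC4 show the 3 kinds of behaviour described below: a regulator that fell, a surface mucin that fell and a surface mucin that rose. The 250 bases before their RefSeq starts (GRCh38.p14, 5′ to 3′ on the gene's own minus strand) are printed so that these upstream regions can be read side by side. They lie at chr6:34556330-34556579 for SPDEF, chr1:155192916-155193165 for MUC1 and chr3:195811930-195812179 for MUC4. The MUC4 region lies inside the deposited span of that gene (195746765 to 195812277), so it is upstream of the RefSeq start only. Capitals mark the single match to any of 4 motifs searched on both strands, which is ACGTG, the hypoxia response core, read on the opposite strand of the SPDEF region.
SPDEF: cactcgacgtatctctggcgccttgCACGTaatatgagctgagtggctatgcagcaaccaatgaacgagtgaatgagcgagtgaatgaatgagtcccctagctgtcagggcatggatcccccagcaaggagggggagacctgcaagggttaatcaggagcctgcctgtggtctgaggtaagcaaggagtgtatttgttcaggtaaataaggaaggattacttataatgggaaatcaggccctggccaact
MUC1: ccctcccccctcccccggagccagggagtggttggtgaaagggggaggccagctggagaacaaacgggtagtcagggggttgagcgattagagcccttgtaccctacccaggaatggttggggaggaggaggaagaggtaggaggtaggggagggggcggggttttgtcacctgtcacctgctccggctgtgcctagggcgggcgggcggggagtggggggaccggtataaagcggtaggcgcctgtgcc
MUC4: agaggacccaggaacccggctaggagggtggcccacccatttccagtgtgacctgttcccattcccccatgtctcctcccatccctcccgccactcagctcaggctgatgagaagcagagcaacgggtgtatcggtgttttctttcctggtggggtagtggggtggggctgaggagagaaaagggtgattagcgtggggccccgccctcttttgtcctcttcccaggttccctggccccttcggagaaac
GC content was 50.8% in the SPDEF region, 66.0% in the MUC1 region and 60.4% in the MUC4 region.

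RefSeq windows, which add 50 bases past the start, matched 5 of the 10 members, in 7 windows of MUC1, MUC4, MUC16, SPDEF and AGR2. The AGR2 window (16804950 to 16805249) lies inside the deposited span of that gene. The MUC16 windows (9010360 to 9010659 and 9065702 to 9066001) lie beyond its deposited end at 8981342. These windows therefore refer to RefSeq starts only. ACGTG was in the windows of SPDEF and MUC4 and in 21.4% of all 35116 windows of the same length. GGAAGT, an ETS motif, was in the SPDEF window past the start and in 22.8% of all windows. TGTTTAC, a forkhead motif, and TGACTCA, the AP-1 motif, had no match in the members' windows and were in 3.42% and 4.95% of all windows. The 4 motifs share no overlapping match in these windows. A match describes letters and not a bound site, and no match says only that the letters are not in the window.

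The members split into a larger set that fell on alectinib and a pair that rose. MUC5B, MUC1, TFF1, TFF3, SPDEF and AGR2 fell in both hosts at both times, while MUC4 and MUC16 rose in both hosts at both times. MUC5AC fell at 6 weeks in both hosts and at 2 weeks in hHGF-NSG tumours. Changes are differences in log2(FPKM + 1), tested with limma across all 16029 genes with Benjamini-Hochberg adjustment and a threshold of 0.05, and this scale understates the change of low genes. In NSG tumours 2 of 9 tested members rose and 6 fell at 2 weeks, where 28.1% of all tested genes rose and 28.0% fell. At 6 weeks 2 rose and 7 fell, beside 28.8% and 28.8% of all genes. In hHGF-NSG tumours 2 rose and 7 fell at 2 weeks, beside 27.5% and 26.6%, and 2 rose and 7 fell at 6 weeks, beside 25.9% and 25.5%. The median log2 change of the tested members was -1.68 and -2.08 in NSG and -1.27 and -1.59 in hHGF-NSG, beside medians over all tested genes of 0.025, 0.032, 0.032 and 0.024. Voom on plain read totals, which differ from the totals behind FPKM, moved the median of all genes to 0.31, 0.28, 0.29 and 0.22. In that fit 69.2%, 66.0%, 67.8% and 63.7% of the calls were higher, beside 50.1%, 49.9%, 50.9% and 50.4%, and 0 called members changed sign. The 2 time points of a host share their naive libraries. In bulk tissue, fewer cells of a type and less RNA per cell cannot be told apart.

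**Figure D1:**
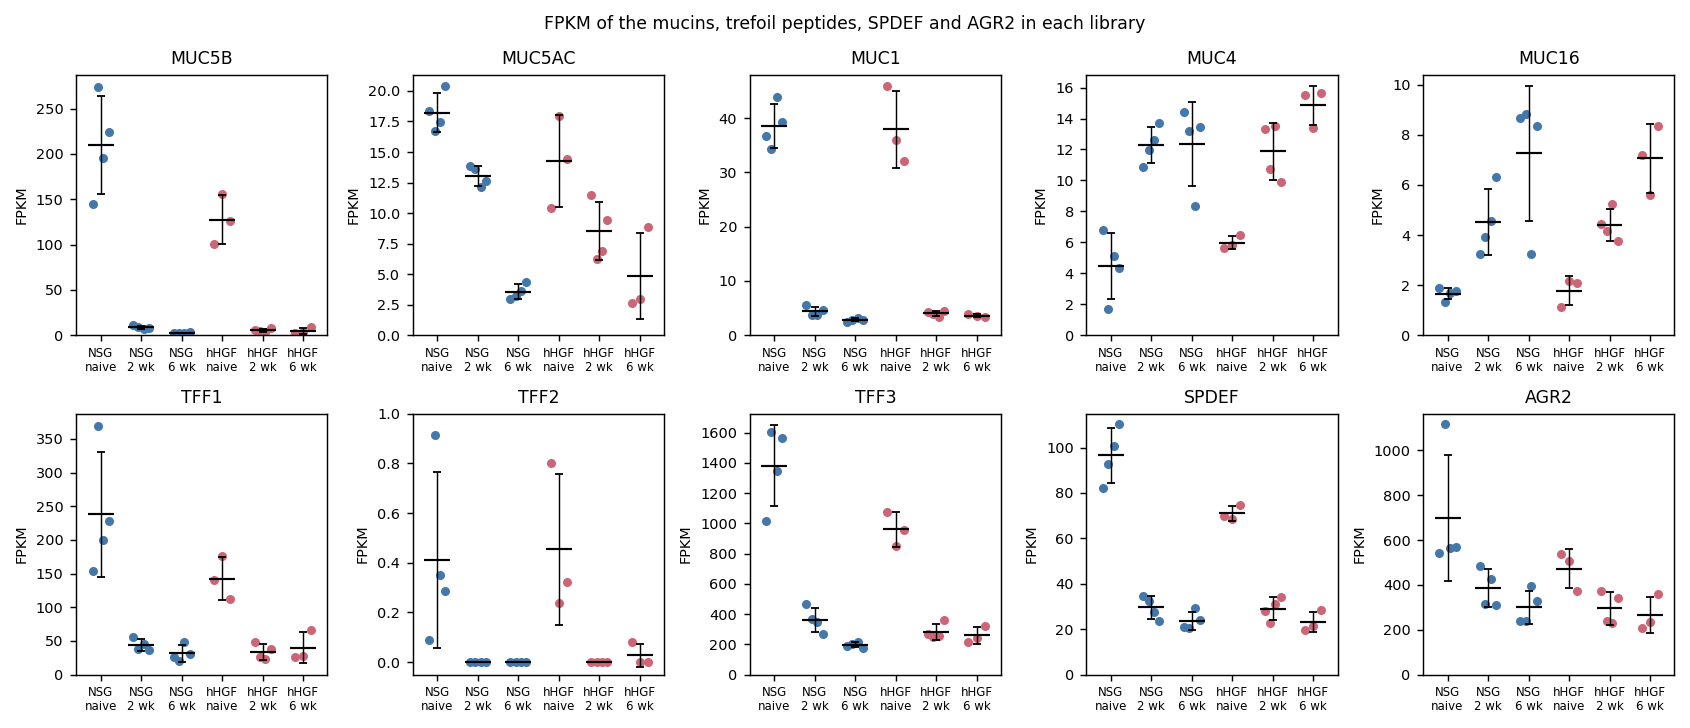
Each panel plots the FPKM of 1 gene (vertical axis, linear) in every library (points) of the 6 groups (horizontal axis, NSG blue, hHGF-NSG red), with the group mean and its SD as black lines. Naive libraries stand above all treated ones for MUC5B, MUC1, TFF1, TFF3 and SPDEF, and below all treated ones within the same host for MUC4 and MUC16.

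MUC5B, a gel-forming mucin of airway glands (ENSG00000117983, hg38 chromosome 11, 1223066 to 1262172, plus strand), had the largest fall. Naive NSG libraries held 144.6, 273.9, 195.7 and 224.4 FPKM, those at 2 weeks 10.76, 8.689, 7.123 and 8.017 FPKM and those at 6 weeks 2.244, 2.212, 2.321 and 3.196 FPKM. The 3 NSG groups did not overlap, and each step was lower than the one before. Naive hHGF-NSG libraries held 101.0, 155.4 and 126.3 FPKM, those at 2 weeks 5.74, 4.928, 3.573 and 7.487 FPKM and those at 6 weeks 2.247, 3.159 and 9.071 FPKM. Here every treated library lay below every naive one, but 2 and 6 weeks overlapped because replicate 3 at 6 weeks was the highest treated library. The log2 change against naive was -4.42 ± 0.27 (SE, limma adjusted p = 1.92e-11) and -5.89 ± 0.27 (adjusted p = 2.52e-13) in NSG at 2 and 6 weeks. It was -4.33 ± 0.29 (adjusted p = 9.46e-11) and -4.62 ± 0.31 (adjusted p = 1.47e-10) in hHGF-NSG. By mean FPKM among 19951 protein coding genes, MUC5B went from rank 150 in naive NSG tumours to rank 4648 at 2 weeks and rank 9114 at 6 weeks.

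MUC5AC, the other gel-forming mucin of this set and a product of surface goblet cells (ENSG00000215182, chromosome 11, 1157953 to 1201138, plus strand), fell mostly after 2 weeks in NSG tumours. Naive NSG libraries held 18.34, 16.72, 17.43 and 20.39 FPKM and those at 2 weeks 13.85, 13.61, 12.14 and 12.62 FPKM. The groups did not overlap, yet the change of -0.45 ± 0.24 did not pass the test (limma adjusted p = 0.111). At 6 weeks NSG libraries held 2.972, 3.225, 3.649 and 4.355 FPKM, and the fall against naive was -2.08 ± 0.24 (adjusted p = 2.22e-07). In hHGF-NSG, naive libraries held 10.43, 17.92 and 14.4 FPKM, those at 2 weeks 11.47, 6.277, 6.909 and 9.415 FPKM and those at 6 weeks 2.61, 2.993 and 8.876 FPKM. Replicate 3 was again the highest library at 6 weeks, and the 2-week group overlapped with both others. The hHGF-NSG change was -0.68 ± 0.25 at 2 weeks (adjusted p = 0.0282) and -1.52 ± 0.27 at 6 weeks (adjusted p = 9.44e-05). The 2-week call in hHGF-NSG was lost with limma voom on the recovered reads (-0.50, adjusted p = 0.0984), with no filter on low values (adjusted p = 0.0662) and without naive replicate 2 or 3 or 2-week replicate 2 or 3 (adjusted p up to 0.146). The NSG change at 2 weeks passed the threshold without hHGF-NSG 6 weeks replicate 3, at the same -0.45 (adjusted p = 0.0198), since all groups share 1 estimate of the spread.

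The ratio of MUC5B to MUC5AC fell within libraries. MUC5B stood at 7.88 to 16.4 times the FPKM of MUC5AC in naive NSG libraries and at 8.67 to 9.69 times in naive hHGF-NSG libraries. After treatment the ratio was 0.587 to 0.777 and 0.636 to 0.755 in NSG at 2 and 6 weeks, and 0.5 to 0.795 and 0.861 to 1.06 in hHGF-NSG. No treated library reached the ratio of a naive one, and MUC5B lay below MUC5AC in every treated library except 2 in hHGF-NSG at 6 weeks. In hHGF-NSG 6 weeks replicate 3, both genes were high and the ratio was 1.02, the median of its group.

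MUC1, a surface mucin of most glandular epithelia (ENSG00000185499, chromosome 1, 155185824 to 155192916, minus strand), fell with little spread. It held 36.73, 34.37, 43.82 and 39.32 FPKM in naive NSG libraries, 5.561, 3.796, 3.817 and 4.572 FPKM at 2 weeks and 2.497, 2.897, 3.228 and 2.866 FPKM at 6 weeks. In hHGF-NSG it held 45.87, 36 and 32.03 FPKM in naive libraries, 4.299, 3.96, 3.416 and 4.375 FPKM at 2 weeks and 3.879, 3.478 and 3.395 FPKM at 6 weeks. Naive and treated libraries were far apart in both hosts, and the NSG groups at 2 and 6 weeks did not overlap. The log2 change was -2.87 ± 0.12 and -3.35 ± 0.12 in NSG (limma adjusted p = 2.7e-14 and 4.43e-15) and -2.95 ± 0.12 and -3.07 ± 0.13 in hHGF-NSG (adjusted p = 7.06e-14 and 2.27e-13). The mean in NSG tumours at 6 weeks was 13.4 times lower than in naive ones.

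MUC4, a surface mucin that can bind the receptor ERBB2 (ENSG00000145113, chromosome 3, 195746765 to 195812277, minus strand), went the other way. Naive NSG libraries held 6.788, 1.664, 5.107 and 4.35 FPKM, those at 2 weeks 10.87, 11.99, 12.63 and 13.68 FPKM and those at 6 weeks 14.4, 13.22, 8.353 and 13.43 FPKM. Every treated library exceeded every naive one, and 2 and 6 weeks overlapped. In hHGF-NSG it held 5.65, 5.833 and 6.454 FPKM, then 13.32, 10.75, 13.54 and 9.881 FPKM, then 15.53, 13.4 and 15.64 FPKM. Against naive tumours, MUC4 changed by 1.38 ± 0.22 and 1.36 ± 0.22 in NSG (limma adjusted p = 2.42e-05 and 2.7e-05) and 0.87 ± 0.24 and 1.18 ± 0.26 in hHGF-NSG (adjusted p = 0.00434 and 0.000655). Naive NSG replicate 2 was low, and without it the NSG changes were 1.06 and 1.05 (adjusted p = 1.01e-05 and 1.15e-05).

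MUC16, the surface mucin that carries the CA125 epitope (ENSG00000181143, chromosome 19, 8848844 to 8981342, minus strand), rose as well. It held 1.877, 1.333, 1.676 and 1.767 FPKM in naive NSG libraries, 3.256, 3.918, 4.576 and 6.332 FPKM at 2 weeks and 8.689, 8.817, 3.242 and 8.336 FPKM at 6 weeks. In hHGF-NSG it held 1.113, 2.152 and 2.086 FPKM, then 4.434, 4.156, 5.252 and 3.764 FPKM, then 7.204, 5.613 and 8.358 FPKM. Treated libraries exceeded naive ones in both hosts, and in NSG 6 weeks replicate 3 MUC16 stood just below the lowest 2-week library. Against naive tumours, MUC16 changed by 1.03 ± 0.22 and 1.56 ± 0.22 in NSG (limma adjusted p = 0.000543 and 4.99e-06) and 0.97 ± 0.24 and 1.54 ± 0.26 in hHGF-NSG (adjusted p = 0.00183 and 4.08e-05). From 2 to 6 weeks MUC16 differed by 0.53 ± 0.22 in NSG (adjusted p = 0.0958) and by 0.57 ± 0.24 in hHGF-NSG (adjusted p = 0.171), neither of which passed, although the hHGF-NSG groups did not overlap. Without NSG 6 weeks replicate 3 both passed, at 0.83 (adjusted p = 0.00167) and 0.57 (adjusted p = 0.0346), and without NSG 2 weeks replicate 4 the NSG difference passed at 0.68 (adjusted p = 0.0439).

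MUC4 passed MUC1 in every treated library, and MUC16 in most but not all of them. MUC4 stood at 0.0484 to 0.201 times the FPKM of MUC1 in the 7 naive libraries and at 1.96 to 5.77 times in the 15 treated ones. MUC16 stood at 0.0243 to 0.0651 times the FPKM of MUC1 in naive libraries and at 0.586 to 3.48 times in treated ones. Neither ratio overlapped between naive and treated libraries in either host.

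**Figure D2:**
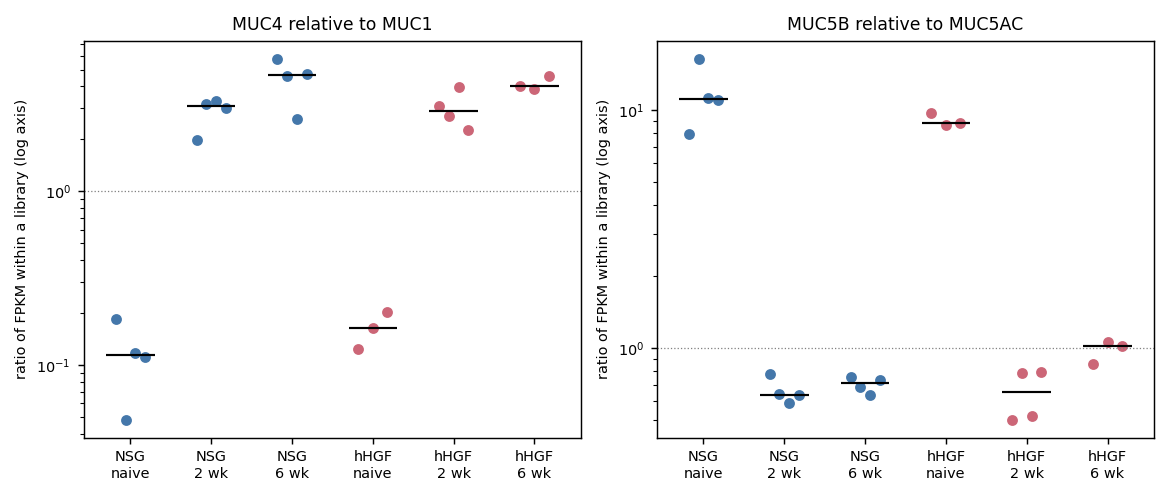
The ratio of FPKM of MUC4 to MUC1 (left) and of MUC5B to MUC5AC (right) within each library is plotted on a log axis for the 6 groups, with points for libraries and lines for medians. The MUC4 to MUC1 ratio is at most 0.201 in naive and at least 1.96 in treated libraries, and the MUC5B to MUC5AC ratio falls from 7.88 or more to 1.06 or less.

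TFF3, a trefoil peptide of goblet cells (ENSG00000160180, chromosome 21, 42311667 to 42315651, minus strand), was the most abundant member in naive tumours. Naive NSG libraries held 1016, 1603, 1344 and 1564 FPKM, those at 2 weeks 463.8, 366.3, 348.6 and 267.2 FPKM and those at 6 weeks 185.5, 204.4, 214.4 and 178.4 FPKM. The 3 NSG groups did not overlap. In hHGF-NSG they held 1076, 848.7 and 956.7 FPKM, then 269.2, 246.9, 253.7 and 358.7 FPKM, then 214.4, 242.9 and 318.2 FPKM, so that 2 and 6 weeks overlapped. The log2 change of TFF3 was -1.94 ± 0.17 and -2.80 ± 0.17 in NSG (limma adjusted p = 7.63e-09 and 2.89e-11) and -1.77 ± 0.19 and -1.90 ± 0.20 in hHGF-NSG (adjusted p = 9.2e-08 and 1.1e-07). TFF3 remained highly expressed: its rank by mean FPKM was 25 in naive NSG tumours, 62 at 2 weeks and 125 at 6 weeks, and 32, 84 and 103 in hHGF-NSG.

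TFF1, a trefoil peptide of gastric surface cells (ENSG00000160182, chromosome 21, 42362282 to 42366594, minus strand), fell with more spread. It held 154.4, 369.5, 200.4 and 228.1 FPKM in naive NSG libraries, 55.78, 37.73, 45.52 and 36.99 FPKM at 2 weeks and 25.34, 20.17, 48.88 and 31.1 FPKM at 6 weeks. In hHGF-NSG it held 139.8, 175.7 and 112.1 FPKM, then 48.2, 25.54, 23.64 and 37.35 FPKM, then 26.02, 26.99 and 66.72 FPKM. All naive libraries exceeded all treated ones, and replicate 3 was the highest library at 6 weeks in either host. The log2 change of TFF1 was -2.35 ± 0.32 and -2.88 ± 0.32 in NSG (limma adjusted p = 2.44e-06 and 1.51e-07) and -2.08 ± 0.34 and -1.93 ± 0.37 in hHGF-NSG (adjusted p = 3.08e-05 and 0.000174).

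TFF2, a trefoil peptide of gastric neck and gland cells (ENSG00000160181, chromosome 21, 42346357 to 42351128, minus strand), lies between the other two and was near the limit of detection. Naive libraries held 1, 12, 4 and 4 reads in NSG and 9, 3 and 4 reads in hHGF-NSG. In treated tumours 14 of 15 libraries held 0 reads and hHGF-NSG 6 weeks replicate 1 held 1. A count of 0 allows up to 3 reads per library, for counting error only, so no fold is given. In the fit with no filter on low values the differences from naive were -0.46 and -0.46 in NSG and -0.52 and -0.48 in hHGF-NSG (limma adjusted p = 0.00745, 0.00724, 0.00581 and 0.0171). The SD was 0 in NSG at 2 and 6 weeks and in hHGF-NSG at 2 weeks. The spread that all groups share, and with it these adjusted p, may therefore be too small. All 3 trefoil genes had their highest values in naive tumours.

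SPDEF, the goblet cell transcription factor (ENSG00000124664, chromosome 6, 34537802 to 34556333, minus strand), fell with little spread. Naive NSG libraries held 82.12, 92.88, 100.9 and 110.3 FPKM, those at 2 weeks 34.71, 32.59, 27.56 and 23.71 FPKM and those at 6 weeks 20.97, 20.61, 29.38 and 23.93 FPKM. In hHGF-NSG they held 70.01, 68.42 and 74.54 FPKM, then 27.9, 22.86, 31.24 and 34.32 FPKM, then 19.8, 21.5 and 28.29 FPKM. Naive and treated libraries did not overlap, while 2 and 6 weeks did in both hosts. SPDEF changed by -1.68 ± 0.15 and -1.99 ± 0.15 in NSG (limma adjusted p = 4.61e-09 and 3.72e-10) and -1.27 ± 0.16 and -1.59 ± 0.17 in hHGF-NSG (adjusted p = 8.1e-07 and 1.16e-07).

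AGR2, the protein disulfide isomerase needed for mucin folding (ENSG00000106541, chromosome 7, 16791811 to 16833433, minus strand), fell least of the genes that fell in all 4 comparisons. Naive NSG libraries held 544.5, 1117, 563.2 and 570.2 FPKM, those at 2 weeks 484.8, 315.9, 427.6 and 311.7 FPKM and those at 6 weeks 238.3, 239.4, 393.4 and 327.8 FPKM. In hHGF-NSG they held 538.4, 507.4 and 372.1 FPKM, then 373.7, 237.9, 230.1 and 343.6 FPKM, then 209.3, 234.2 and 358 FPKM. NSG naive and treated libraries did not overlap, and in hHGF-NSG the lowest naive library lay below the highest 2-week one. AGR2 changed by -0.81 ± 0.25 and -1.18 ± 0.25 in NSG (limma adjusted p = 0.0088 and 0.000416) and -0.69 ± 0.27 and -0.84 ± 0.29 in hHGF-NSG (adjusted p = 0.0363 and 0.0187). Without naive NSG replicate 2 the NSG changes were -0.56 and -0.93 (adjusted p = 0.0451 and 0.00192). The hHGF-NSG calls were not stable: with no filter on low values the adjusted p was 0.0858 at 2 weeks and 0.0501 at 6 weeks, and with voom on the recovered reads 0.103 and 0.0252. With the replicate number as a block the 2-week adjusted p was 0.0646. Leaving out naive replicate 1 or 2, 2-week replicate 2 or 3, or 6-week replicate 1 or 2 also ended the call of that time point, with adjusted p up to 0.124 and 0.0882.

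**Figure D3:**
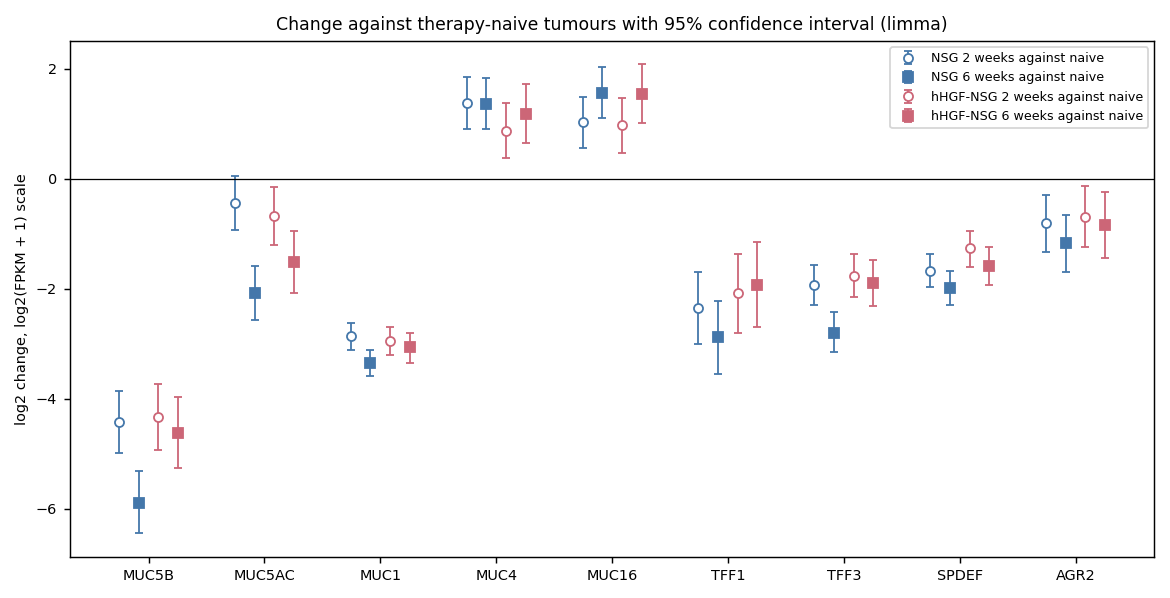
Points give the log2 change on the log2(FPKM + 1) scale (vertical axis) of 9 members (horizontal axis) in the 4 comparisons against naive tumours, with 95% confidence intervals from limma as bars. MUC4 and MUC16 lie above 0 and the others below, and the MUC5AC interval at 2 weeks in NSG includes 0.

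Between 6 and 2 weeks, 4 members fell further in NSG tumours and 0 rose, where 11.9% of all tested genes fell and 8.43% rose. MUC5AC changed by -1.63 ± 0.24 (limma adjusted p = 4.72e-05), MUC5B by -1.46 ± 0.27 (adjusted p = 0.000597), TFF3 by -0.86 ± 0.17 (adjusted p = 0.00143) and MUC1 by -0.48 ± 0.12 (adjusted p = 0.00562). In hHGF-NSG tumours 1 member fell and 0 rose, where 6.45% of all genes fell and 2.63% rose. That member was MUC5AC, at -0.83 ± 0.25 (adjusted p = 0.0437). It lost the call with no filter on low values, with the replicate block and without most single libraries, with adjusted p up to 0.283, whereas without hHGF-NSG 6 weeks replicate 3 it was -1.29 (adjusted p = 0.000171). The MUC5B change in this host was -0.29 ± 0.29 (adjusted p = 0.669), and -0.77 (adjusted p = 0.0557) without that library.

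No member passed the test between hosts at any time, with 0 of 9 called in each comparison. The share of all genes called was 0.0187% for hHGF-NSG against NSG in naive tumours, and 0.0% at 2 weeks and 0.0% at 6 weeks. At an unadjusted p under 0.05, limma marked 3, 2 and 0 of the 9 members, beside 1427, 681 and 1946 of all 16029 tested genes. In naive tumours the 3 members were SPDEF, TFF3 and MUC5B, each lower in hHGF-NSG, by -0.43 ± 0.16 (95% interval -0.76 to -0.10, adjusted p = 0.41), -0.51 ± 0.19 (-0.90 to -0.12, adjusted p = 0.411) and -0.70 ± 0.29 (-1.30 to -0.09, adjusted p = 0.48). At 2 weeks the 2 members were MUC5AC and MUC5B, by -0.59 ± 0.24 and -0.61 ± 0.27 (adjusted p = 1.0 for both). With NSG naive replicate 1 left out, the naive difference was -0.51 for SPDEF, -0.65 for TFF3 and -0.86 for MUC5B (adjusted p = 0.209, 0.142 and 0.241).

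Whether the response to alectinib differed between the hosts was tested directly. The share of all genes called was 0.0% for the 2-week response, 0.0% for the 6-week response and 0.0% for both together in an F-test, and 0 of 9 members were called in each. At an unadjusted p under 0.05, limma marked 0 members at 2 weeks and 2 at 6 weeks and in the F-test. The same cut marked 859 of all 16029 tested genes at 2 weeks, 2142 at 6 weeks and 1639 in the F-test. The 2 members were TFF3 and MUC5B, whose fall at 6 weeks was smaller in hHGF-NSG by 0.89 ± 0.26 (95% interval 0.34 to 1.45, adjusted p = 0.218) and 1.26 ± 0.41 (0.41 to 2.12, adjusted p = 0.235). Without hHGF-NSG 6 weeks replicate 3 the MUC5B difference was 0.78 (adjusted p = 0.246) and the TFF3 difference 0.73 (adjusted p = 0.211). With NSG naive replicate 1 left out they were 1.43 (adjusted p = 0.123) and 1.03 (adjusted p = 0.0721). For MUC1 the interval of the difference at 6 weeks was -0.09 to 0.64 and for MUC16 -0.73 to 0.69.

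The rest of the mucin family held both directions as well. Of 15 other mucin and mucin-like genes, 6 passed the filter, and in each of the 4 comparisons 4 rose and 1 fell. Among all tested genes 25.9% to 28.8% rose and 25.5% to 28.8% fell, so the count that fell was not above the share over all genes. Naive means of MUC13, MUC15 and MUC21 were 0.519 FPKM or less, and these genes passed the filter through treated libraries. The count that rose was thus partly set by the filter. MUC2, the gel-forming mucin of the intestine, fell from 35.8 ± 4.53 to 1.09 ± 0.22 and 0.391 ± 0.0556 FPKM in NSG (SD, n = 4 each), a log2 change of -4.14 and -4.72, and by -4.10 and -4.31 in hHGF-NSG. MUC15, a surface mucin, rose from 0.249 ± 0.173 to 7.17 ± 0.241 and 14.3 ± 1.22 FPKM in NSG, by 2.72 and 3.62, and by 3.20 and 3.83 in hHGF-NSG. The surface mucin MUC20 rose by 1.98, 2.11, 1.88 and 2.12 and MUC21 by 1.19, 2.64, 1.22 and 2.52, in the same order. Adjusted p for these 4 genes was 3.7e-06 or less in all 4 comparisons (limma). MUC13, named here after its values were seen, rose by 1.27, 0.35, 1.37 and 0.42. Of the gel-forming mucins tested here, MUC2, MUC5B and MUC5AC all fell at 6 weeks, and 6 surface mucins rose while MUC1 fell. Those 6 include MUC13, MUC15 and MUC21, which were tested only because treated libraries passed the filter.

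Several members sit in gene clusters, and the neighbours were read as well. On chromosome 11, MUC2, MUC5AC and MUC5B follow each other on the plus strand. MUC2 and MUC5B fell in all 4 comparisons and MUC5AC in all but NSG at 2 weeks, whereas TOLLIP, the next gene, differed by 0.01, 0.04, 0.15 and 0.26 (limma adjusted p = 0.947, 0.774, 0.296 and 0.0906). On the plain read totals of the voom fit, TOLLIP was higher by 0.29, 0.27, 0.41 and 0.46 (adjusted p = 0.0479, 0.0615, 0.0105 and 0.00805), where the median of all genes was 0.31, 0.28, 0.29 and 0.22. On chromosome 3, MUC20 and TNK2, a tyrosine kinase, flank MUC4, and TNK2 rose by 1.17, 1.21, 0.79 and 1.07 (adjusted p = 4.15e-08, 2.69e-08, 2.5e-05 and 1.35e-06). On chromosome 21, the trefoil genes lie between ABCG1, a sterol transporter, and TMPRSS3, a membrane serine protease. Both rose while the trefoil genes fell. ABCG1 rose by 0.91, 0.98, 0.89 and 0.75 and TMPRSS3 by 0.44, 0.40, 0.79 and 0.82, all with limma adjusted p of 0.0123 or less. Both were low, with group means of 0.26 to 0.813 FPKM in naive and 1.14 to 1.58 FPKM in treated tumours. ABCG1 passed the filter through treated libraries, so it was tested only because it was higher there. Genes that overlap MUC1 and MUC5B in the annotation (AL713999.1, MUC5B-AS1 and MIR6744) held 0 reads in all libraries.

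Enzymes that build mucin O-glycans mostly fell. Of 23 listed genes 20 were tested, of which 16 and 14 fell in NSG at 2 and 6 weeks and 15 and 15 in hHGF-NSG, while 1, 2, 1 and 2 rose. Among all tested genes 28.0%, 28.8%, 26.6% and 25.5% fell and 28.1%, 28.8%, 27.5% and 25.9% rose. Medians of the list were -0.88, -1.07, -0.72 and -0.81. B3GNT6, which makes the core 3 glycan of intestinal mucins, fell from 10.5 ± 2.08 to 1.11 ± 0.219 and 0.345 ± 0.184 FPKM in NSG, by -2.43 and -3.09 on the log2 scale, and by -2.26 and -2.51 in hHGF-NSG. GALNT7, GALNT10 and GALNT5, transferases that start or extend the first sugar step, changed by -1.19 to -1.93 (limma adjusted p = 6.88e-06 or less). The genes that rose, named after their values were seen, were ST6GALNAC2 in all 4 comparisons and GCNT1 at 6 weeks in both hosts. With single libraries left out, 14 to 16 fell and 1 to 4 rose.

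Genes for folding and granule release moved in both directions, and more fell than rose. Of 19 listed genes 17 were tested, and 5, 4, 5 and 4 rose while 10, 10, 10 and 9 fell. Among all genes 28.1%, 28.8%, 27.5% and 25.9% rose and 28.0%, 28.8%, 26.6% and 25.5% fell, so the count that rose was near or below the share over all genes. The count that fell was above that share, and medians of the list were -0.67, -0.81, -0.5 and -0.57. SLC12A2, the chloride importer of secretory cells, fell from 52.2 ± 8.42 to 10.1 ± 0.803 and 11.2 ± 1.62 FPKM in NSG, by -2.25 and -2.12, and by -2.15 and -2.23 in hHGF-NSG. CREB3L1, a transcription factor of secretory cells, changed by -1.41, -1.96, -1.10 and -1.20 and the potassium channel KCNN4 by -1.28, -1.14, -2.20 and -1.35. SYTL2, a Rab27 effector of granule release, rose by 1.56, 1.87, 1.32 and 1.43. With single libraries left out, 9 to 11 fell and 2 to 5 rose.

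Among 18 transcription factors of mucous and gastric epithelium, 13 were tested, with 4, 2, 4 and 3 higher and 5, 5, 4 and 4 lower. With medians of -0.06, -0.18, 0.10 and -0.20, and with 25.5% to 28.8% of all genes called in either direction, this list as a whole was near the background. FOXA2, a factor that restrains goblet cell differentiation in the airway, fell from 10.7 ± 3.61 to 1.15 ± 0.399 and 0.686 ± 0.176 FPKM in NSG, by -2.40 and -2.75, and by -2.17 and -2.23 in hHGF-NSG. FOXA3, a factor that promotes it, changed by -1.24, -1.57, -1.19 and -1.37. NKX2-1 rose from 85.8 ± 17.4 to 228 ± 11.8 and 235 ± 23.6 FPKM in NSG, by 1.42 and 1.46, and by 1.63 and 1.98 in hHGF-NSG. CDX2, an intestinal factor, rose by 0.69, 0.35, 0.98 and 0.88. With voom on the recovered reads, which shifts all genes upward, this list had 6, 5, 6 and 5 higher and 4, 4, 3 and 3 lower. With single libraries left out it had 1 to 4 higher and 3 to 5 lower.

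Gastric and mucinous tumour genes did not move as a block. Of 16 genes 8 were tested, with 4, 5, 5 and 5 higher and 2, 3, 2 and 2 lower. The lower count was near the 25.5% to 28.8% of all genes that fell. The higher count was above the 28.1%, 28.8%, 27.5% and 25.9% of all genes that rose. However, MSLN and LGALS4 had naive means of 0.296 FPKM or less and passed the filter through treated libraries. The higher count was thus partly set by the filter. In the fit with no filter on low values 2, 4, 3 and 4 of the same 8 genes were higher, which does not undo their choice by the filter. Medians of the list were 0.26, 0.67, 0.51 and 0.80. VSIG1, a junction protein of gastric epithelium, fell from 7.28 ± 2.05 to 0.464 ± 0.154 and 0.46 ± 0.31 FPKM in NSG, by -2.46 and -2.49, and by -3.18 and -3.09 in hHGF-NSG, and CEACAM5 changed by -0.98, -0.68, -0.91 and -0.73. MSLN, mesothelin, which is a binding partner of MUC16, rose from 0.106 ± 0.0861 to 3.16 ± 0.773 and 5.27 ± 0.932 FPKM in NSG, by 1.89 and 2.50, and by 1.93 and 3.03 in hHGF-NSG. PSCA, a surface antigen, rose by 1.62, 1.73, 1.86 and 2.42. With single libraries left out, 2 to 5 were higher and 2 to 3 lower.

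**Figure D4:**
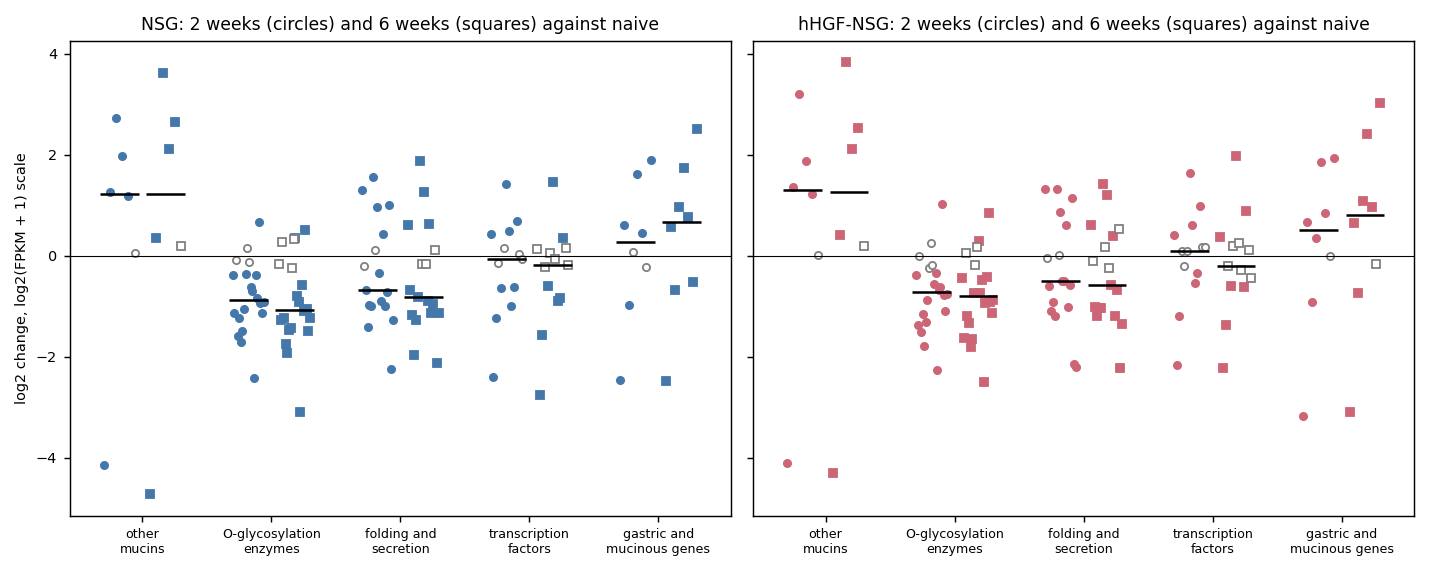
Each point is the log2 change (vertical axis, log2(FPKM + 1) scale) of 1 tested gene of 5 lists (horizontal axis) in NSG (left) and hHGF-NSG (right), at 2 weeks (circles) and 6 weeks (squares). Filled points passed an adjusted p of 0.05 and open ones did not. Lines are medians, which lie at -0.72 to -1.07 for the O-glycosylation enzymes and at 1.23 to 1.29 for the other mucins. The filter on low values partly set the median of the other mucins.

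Genes whose pattern over the 22 samples was most like each member were read as a description, among 6948 protein coding genes with a mean of at least 5 FPKM. The points share the 6 groups and the split between naive and treated tumours. MUC1 was most like GAPDH (Pearson r = 0.997), MUC2 (0.994) and SLC7A5 (0.993). MUC5B was most like BIRC5 (0.99), CDC45 (0.989) and RACGAP1 (0.989), TFF3 most like EIF4EBP1 (0.981), SPDEF most like SMOX (0.98) and TFF1 most like BPIFB2 (0.967). MUC16 was most like CFLAR (0.958), MUC4 most like LENG8 (0.941), MUC5AC most like H2AFY (0.941) and AGR2 most like PRPS2 (0.925). The nearest genes of MUC5AC and AGR2 were thus less alike to them than those of MUC1 and MUC5B.

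Mouse transcripts of the same genes were nearly undetected. In the mouse table, which was used for 20 libraries, the mouse orthologues of 7 of the 10 members held 0 reads in every library, and Muc16 and Spdef held 1 read each in all. Mouse Muc1 held 0 to 15 reads per library, up to 2.13 FPKM. Mouse reads made up 5.5% to 11.99% of a naive NSG library, 12.12% to 20.24% after 2 weeks of alectinib and 16.91% to 21.87% after 6 weeks. In hHGF-NSG libraries these ranges were 6.81% to 13.48% (naive), 8.71% to 17.42% (2 weeks) and 24.3% to 28.95% (6 weeks). Of 7 human fibroblast and endothelial markers 3 passed the filter. Their summed level lay between 12.3 and 34.9 FPKM (naive), 10.9 and 13.6 FPKM (2 weeks) and 6.89 and 16.6 FPKM (6 weeks) in NSG, and between 28.4 and 105.0, 9.04 and 11.1, and 14.7 and 19.0 FPKM in hHGF-NSG. COL1A1, a collagen chain, held 4.68 to 102 FPKM, while DCN, PECAM1, COL1A2 and COL3A1 stayed at or below 0.92 FPKM. The endothelial markers CDH5 and VWF also passed, at 1.24 to 3.32 and 0.366 to 1.65 FPKM. At 2 weeks VWF rose by 0.54 in NSG and 0.67 in hHGF-NSG. In the same order COL1A1 changed by -1.21 and -2.55 and CDH5 by -0.56 and -0.32. Of 5 squamous and basal markers 3 passed. Their summed level lay between 1.29 and 10.1 FPKM (naive), 0.76 and 2.01 FPKM (2 weeks) and 1.34 and 3.23 FPKM (6 weeks) in NSG, and between 5.28 and 13.3, 0.689 and 1.21, and 1.65 and 3.06 FPKM in hHGF-NSG. The part of the mouse share and of these markers in the members' changes was not tested.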

How the data were processed

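FPKM per gene (reads scaled by gene length and library size) are the values the authors deposited, per the file headers, in 1 human and 1 mouse table. Reads were mapped to a human and a mouse genome, per the labels, and the submitters' processing notes list GRCh38, hg38, mm10 and DESeq2 and assign DESeq2 no step. The aligner, and how reads of both species were told apart, were not given in the sources used here. Gene coordinates and the lengths behind FPKM are those deposited by the authors.

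Whole reads were recovered from FPKM and gene length. Of the lower values above 0, 100.0% came out whole within 0.05 of a read. The highest values, among them those of the most abundant members, were not checked in this way. The library size behind FPKM was 0.876 to 1.111 times the plain human total. limma 3.58.1 (R 4.3.3) was fitted to log2(FPKM + 1) with 1 mean per group over all 22 libraries and a mean-variance trend, 2-sided, adjusted within each of 12 comparisons, after a test on simulated data. Alternatives were a pseudocount of 0.1, no filter, rescaling by the median ratio, a replicate block, voom on the recovered reads, and leaving out each library. Python 3.11.15, numpy 2.4.6, pandas 2.3.3 and matplotlib 3.10.9 were used. Promoter sequences are from RefSeq.

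The members and lists were chosen with earlier results of these data known. All 10 members were named, with up to 4 genes per list (called in all 4 comparisons against naive with the largest smallest change, otherwise the highest mean), the 3 genes most like a member, and cluster neighbours. Mouse values were used for 20 of the 22 libraries (all but replicate 2 of naive NSG and replicate 4 of NSG at 6 weeks).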

Additional observations from a re-analysis of the deposited data

Results flagged for a closer look

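A screen for single libraries far from the rest of their group covered 37 sets of 4 libraries, and 4 gene values, in 3 libraries, stood out. Chance alone would mark about 1 in 20. AGR2 was 1117 FPKM in NSG naive replicate 2, and the gap to the nearest library was 0.936 of the group's range. MUC4 was 8.353 FPKM in NSG 6 weeks replicate 3 (0.84 of the range) and MUC16 was 3.242 FPKM in the same library (0.94 of the range). MUC5B was 3.196 FPKM in NSG 6 weeks replicate 4 (0.876 of the range). The NSG 6 weeks replicate 3 library also had the highest AGR2, TFF1, SPDEF and TFF3 of its group.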

How the results depend on the processing

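Of 99 changes of a member, 40 passed the threshold, and 0 of these 40 turned direction under any alternative. Over all alternatives, 2591 values kept direction and side of the threshold, 34 lost a call, 4 gained one and 44 turned direction, the last in 18 changes that had not passed. With single libraries left out, these 18 spanned 0 as follows. From 2 to 6 weeks, MUC4 in NSG ranged from -0.09 to 0.15, and in hHGF-NSG MUC5B from -0.77 to 0.04 and TFF1 from -0.28 to 0.39. For hHGF-NSG against NSG in naive tumours, MUC1 ranged from -0.17 to 0.08 and MUC16 from -0.06 to 0.23. The same comparison at 2 weeks gave -0.12 to 0.02 for MUC4, -0.12 to 0.14 for MUC16 and -0.13 to 0.08 for SPDEF. At 6 weeks it gave -0.25 to 0.47 for MUC5AC, -0.27 to 0.16 for MUC16, -0.16 to 0.51 for TFF1 and -0.18 to 0.07 for SPDEF. The difference between hosts in the 2-week response ranged from -0.19 to 0.06 for MUC1, -0.07 to 0.25 for MUC5B (-0.03 with voom), -0.24 to 0.09 for MUC16 and -0.12 to 0.25 for AGR2. In the 6-week response it ranged from -0.38 to 0.13 for MUC4 and -0.31 to 0.12 for MUC16. Calls that changed belonged to MUC5AC, AGR2 and MUC16. The count of members called for hHGF-NSG 6 weeks against 2 weeks was 1, 0 with no filter on low values and 0 with the replicate block, and 0 to 2 when single libraries were left out. Same-numbered libraries of different groups did not deviate together (mean r -0.014, 8 of 51 pairs over 0.1, 7 of 22 libraries closest to their own number), so the numbers were not used to pair samples. The cause of the lost calls was not tested. Over all genes, hHGF-NSG against NSG in naive tumours had 3 calls, 25 with no filter, 5 with a pseudocount of 0.1, 1 with voom, 1 with the block and 40 without NSG naive replicate 1. At 2 and 6 weeks the same comparison had 0 calls, 2 and 1 with no filter, and up to 1 and 8 with a library left out (8 without NSG 6 weeks replicate 3). The difference in 2-week response had 0 calls and 9 with no filter, and that over both times 0, 9 with no filter and 7 without NSG naive replicate 1. The difference in 6-week response had 0 calls, 6 with a pseudocount of 0.1 and 5 with no filter, and went from 0 to 62 calls without that library, with 0 members among them. Low depth limits TFF2, with 12 reads at most.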
